A study of Mus musculus with 6 samples.

Results

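The prostaglandin and leukotriene pathway was followed through 10 genes chosen by name, namely Ptgs1, Ptgs2, Ptges, Ptgir, Ptger2, Ptger4, Hpgd, Alox5, Alox5ap and Lta4h. They were looked up among the array's probe sets whose annotation gives exactly 1 gene symbol, and where a gene had several such probe sets the one of highest mean over the 6 arrays stood for it. This gave 9 measured members out of 22180 genes, and Ptgs1, the constitutive cyclooxygenase, was not analysed here. All 9 lay above the 25th percentile of their array on at least 3 of the 6 arrays, as did 18458 genes in all, over which p-values were adjusted.

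The material was RNA of mouse inflammatory monocytes, flow-sorted as cells with CD11b, without CD11c and with much Ly6C on their surface. The 3 spleen samples and 3 tumor samples were each hybridised to 1 Mouse Gene 2.0 ST array, which sums many short probes into 1 intensity per probe set. All mice had been given Th9 cells, a kind of helper T cell that makes interleukin-9, and tissue was taken 10 days later, so neither group is free of this transfer. The labels enter "Th9" in the strain field, while the mouse strain, the animals' age and the kind of tumor were not stated in any label. Since no label says that samples of a group are from different mice, p-values reflect the spread among these arrays only, and that spread may be technical. Levels below are log2(intensity + 1), and differences are tumor minus spleen on that scale with the SE of limma, a linear model that pools information on the spread across genes. A gene is said to be higher or lower at a Benjamini-Hochberg adjusted p under 0.05. For a single value, the exact permutation test over 3 and 3 arrays has a smallest possible p of 0.1.

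Arrays numbered 3 had a median log2 intensity of 4.73 (spleen) and 4.76 (tumor), above the 4.50 to 4.51 of the arrays numbered 1 and 2 in both groups. Of the classical monocyte markers all 10 were tested, 5 higher and 3 lower in tumor, with Fcgr1 (3.56) and Vcan (2.44) changed most upward and Ccr2 (-0.93) and Itgam (-0.85) most downward, and the log2 of their summed intensity was 14.40 to 14.46 in spleen and 14.47 to 14.59 in tumor. Ly6c2, which encodes a form of the Ly6C used in the gate, had levels of 6.81 ± 0.58 (SD, n = 3) in spleen and 8.29 ± 0.40 in tumor. It was higher by 1.48 ± 0.31 (limma adjusted p = 0.0185), so this gene of the gate itself differed between the groups. Itgax encodes CD11c, and although the gate took cells without this protein its level was 11.16 ± 0.12 (SD, n = 3) in spleen and 10.31 ± 0.17 in tumor. The mast cell and basophil markers, listed because such cells make these lipids, held 1 higher and 0 lower gene of 7 tested (6 not called), and their summed log2 intensity was 10.26 to 10.91 in spleen and 10.65 to 11.10 in tumor. The gene that was higher is Hdc, histidine decarboxylase, at 3.38 ± 0.17. Of the others the protease gene Cpa3 had levels of 9.91 ± 0.36 and 9.86 ± 0.28, and the IgE receptor gene Fcer1a, below the filter and not tested, 3.21 and 3.30. Neutrophil markers had 0 higher and 2 lower genes of 11 (Mmp9 and Mmp8), with a summed log2 intensity of 11.51 to 11.77 in spleen and 11.04 to 11.17 in tumor, and Ly6g, which defines the type, at 5.06 ± 0.76 and 5.01 ± 0.29. Platelet markers, relevant because platelets carry cyclooxygenase and thromboxane synthase, had 1 higher (Gp6) and 1 lower gene (Ppbp) of 7, with sums of 9.41 to 9.83 in spleen and 8.45 to 8.60 in tumor. Dendritic cell markers had 4 higher (Tcf4, Bst2, Zbtb46 and Ccr7) and 0 lower genes of 9, with sums of 12.23 to 12.30 in spleen and 12.92 to 13.03 in tumor. The 5 not called were Flt3 (0.09), Siglech (0.10), Ccr9 (0.07), Xcr1 (-0.29) and Cd209a (-0.41). Tissue macrophage markers had 0 higher and 2 lower genes of 8 (C1qb at -0.64 and C1qc at -0.74), with sums of 12.63 to 13.02 in spleen and 12.25 to 12.74 in tumor. Endothelial markers had 1 higher (Kdr at 2.88) and 1 lower gene (Vwf at -1.37) of 5, with sums of 8.94 to 9.20 and 9.14 to 9.59. T cell markers had 0 higher and 1 lower gene of 6 (Cd3g at -1.36), with sums of 8.12 to 8.31 and 7.51 to 7.85. In the 7 other lists, of eosinophils, B cells, NK cells, fibroblasts, epithelial cells, the melanocyte lineage and erythroid cells, limma called 0 of 31 tested genes, with 4 at an unadjusted p under 0.05. Over the 6 fits that leave out 1 array, Ccr7 kept its call in 0, Mmp8 in 1, Gp6 in 2, and C1qb and C1qc in 3 each. Fcgr1, Vcan, Hdc, Mmp9, Ppbp, Tcf4, Bst2, Kdr, Vwf and Cd3g kept theirs in all 6. Ccr2, Itgam, Ly6c2 and Zbtb46 were not followed over these fits. The part of these cell types in the results below was not tested, and on such bulk samples fewer cells of a type and less RNA per cell cannot be told apart.

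Both lipid families start from arachidonic acid, which phospholipases release from membranes. Cyclooxygenases turn it into prostaglandin H2, from which terminal synthases make prostaglandin E2, prostacyclin and thromboxane, each read by its own G protein-coupled receptors. The 5-lipoxygenase enzyme, aided by its activating protein, instead makes leukotriene A4, which a hydrolase converts to leukotriene B4, an attractant of neutrophils and monocytes. Myeloid cells are a main source of both, and they switch on Ptgs2 when microbial products or cytokines stimulate them.

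Ptgs2, the inducible cyclooxygenase, was the 1 measured member that was higher in tumor, by 11.8-fold. The 4 members that were lower were Alox5 and Lta4h of leukotriene synthesis and the receptor genes Ptgir and Ptger2, each by 1.86-fold to 2.34-fold. Ptges, Ptger4, Hpgd and Alox5ap were not called. Across all 18458 tested genes 10.6% were called, 5.73% higher and 4.85% lower, against 1 higher and 4 lower of the 9 members. The balance of the calls over all genes turned with the setting: 1057 were higher and 895 lower in the fit reported, 1585 and 1921 with quantile normalization, 1483 and 1806 with median centring, 1854 and 1330 with cyclic loess, 2867 and 4235 with array weights, and 2153 and 3193 with the replicate number as a block. Under each of these alternatives 5 members were lower, Alox5ap being added, and Ptges was a second higher member with cyclic loess, array weights and the block. In 8 of the 9 members the tumor and spleen values did not overlap, which held for 25.4% of all tested genes. Tumor lay above spleen in 2 of these members (9.81% of all tested genes) and below it in 6 (15.5%). The members' median difference was -0.55 against -0.05 over all tested genes, and their median absolute difference was 0.90 against 0.18. The members were chosen with earlier results of these data known, so these comparisons describe them and test nothing. Ptgs2, Ptgir, Ptger4, Alox5, Alox5ap and Lta4h had mean levels above 7.64, the upper quartile over all tested genes. Ptges, Ptger2 and Hpgd lay below it, and the comparison with all genes was not matched for level.

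**Figure D1:**
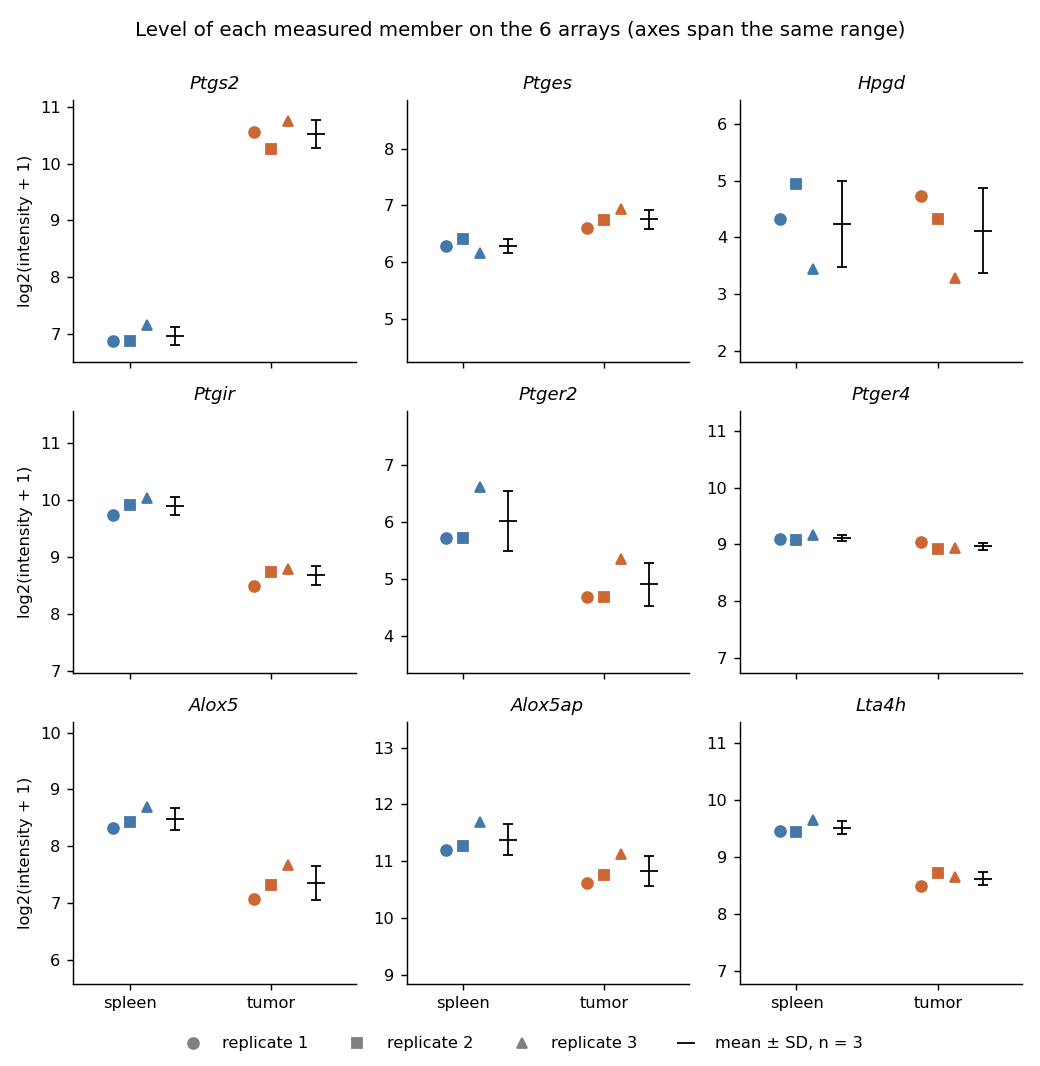
Level of each of the 9 measured members, as log2(intensity + 1), on the 3 spleen and 3 tumor arrays; symbols give the replicate number, and the bar beside each group is the mean ± SD (n = 3). All panels span the same range, so that the rise of Ptgs2 from about 6.97 to 10.53 can be set against the falls of Ptgir, Ptger2, Alox5 and Lta4h, while Hpgd is the 1 member whose groups overlap.

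Ptgs2, which makes prostaglandin H2 (probe set 17218060, Entrez gene 19225), had levels of 6.87, 6.87 and 7.15 on spleen arrays 1 to 3 and of 10.56, 10.26 and 10.75 on tumor arrays 1 to 3. On the linear scale these are intensities of 116.4, 116.3 and 141.0 against 1512, 1228 and 1727. Every tumor array lay far above every spleen array, and the gap between the groups was many times the spread within either. The difference was 3.56 ± 0.18 (limma adjusted p = 7.48e-06), the 58th largest rise of the 18458 genes, and it was called under all 19 alternative settings tried, with differences from 3.41 to 3.69. Within the numbers 1, 2 and 3 it came to 3.69, 3.39 and 3.61.

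The promoter of Ptgs2 is shown because this gene carries the largest change, from 250 bases before to 50 bases after the start annotated by RefSeq on GRCm38.p6. Capitals here and in the promoters below mark matches, on either strand, to 6 short motifs: C/EBP as TTNNGNAA, the core of the cAMP response element as TGACG, the E-box CACGTG, PU.1 as GAGGAA, the GC box GGGCGG and the TATA box TATAAA.
Ptgs2 promoter, chr1:150099781-150100080, plus strand: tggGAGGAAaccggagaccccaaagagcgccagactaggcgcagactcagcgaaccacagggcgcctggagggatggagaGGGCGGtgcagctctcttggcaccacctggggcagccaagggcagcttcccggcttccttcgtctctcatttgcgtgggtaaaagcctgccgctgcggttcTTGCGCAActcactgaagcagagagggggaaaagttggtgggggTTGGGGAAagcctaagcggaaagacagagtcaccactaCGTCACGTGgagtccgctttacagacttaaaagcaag
The window holds CGTCACGTG at positions 14 to 22, counting the annotated start as 1, in which the reverse of the cAMP core shares its last 2 bases with an E-box. This run of 9 letters occurs in 0.451% of the 32851 promoters in the same RefSeq set. The window also holds the C/EBP match TTGCGCAA at positions -69 to -62, found in 0.183% of promoters in this exact spelling and in 40.7% for the looser motif, and a second match, TTGGGGAA, at -25 to -18. A PU.1 match and a GC box lie further upstream, at -247 and -170. Of all promoters 28.3% hold the PU.1 letters, 35.7% a GC box, 20.8% the cAMP core and 7.15% the E-box. The motifs were set after the members' values were seen, and the spellings CGTCACGTG and TTGCGCAA were counted after they were found in this window. Motifs of NF-kB as GGNNTTNCC and of the interferon-stimulated response element as GAAANNGAA, in 16% and 8.56% of promoters, were searched too and are not marked, a choice made after their matches were seen. The first matched at -22 to -14 in Ptgs2 and in no other member, where it overlaps the second C/EBP match, and the second matched no member. Earlier spellings of both, each longer by 1 letter, matched no member. Such matches describe the sequence and do not show that a factor binds.

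Ptges, the inducible synthase that turns prostaglandin H2 into prostaglandin E2, had levels of 6.29, 6.41 and 6.17 in spleen and 6.60, 6.73 and 6.93 in tumor. The tumor values lay above all spleen values, by a small margin. Its difference of 0.47 ± 0.15 (1.38-fold) missed the threshold at limma adjusted p = 0.108, and it was called with the replicate number as a block (adjusted p = 0.0223), with cyclic loess scaling and with array weights. The shift was 0.31 and 0.32 within numbers 1 and 2 and 0.76 within number 3. Set against each other within an array, which a shift of the whole array cannot touch, the log2 level of Ptgs2 minus that of Ptges went from 0.68 ± 0.27 in spleen to 3.77 ± 0.22 in tumor (SD, n = 3), a shift of 3.10 with no overlap. An exact two-sided permutation test gave p = 0.1, the smallest it can give here whatever the values, and 0.1 after adjustment over the 4 such pairs, which were chosen after the members' values were seen.

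Hpgd, the dehydrogenase that inactivates prostaglandins, was dim, with levels of 4.33, 4.94 and 3.44 in spleen and 4.73, 4.33 and 3.29 in tumor. Only 4 of the 6 arrays lay above the filter, and the groups overlapped. The difference was -0.12 ± 0.44 (limma adjusted p = 0.958). This SE is the largest of the 9 members, so a change of moderate size could not have been detected.

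Of the 3 receptor genes among the members, Ptgir and Ptger2 were lower and Ptger4 was not called, while 4.85% of all tested genes were lower. Ptgir, the prostacyclin receptor (probe set 17474217, Entrez gene 19222), had levels of 9.74, 9.92 and 10.04 in spleen and 8.49, 8.74 and 8.80 in tumor. All tumor arrays lay below all spleen arrays, and the difference was -1.23 ± 0.16 (limma adjusted p = 0.00179), called under all 19 alternatives. Within the numbers 1, 2 and 3 it was -1.25, -1.18 and -1.25.

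Ptger2 (probe set 17299180, Entrez gene 19217) encodes EP2, a receptor that raises cAMP when it binds prostaglandin E2. Its levels were 5.72, 5.72 and 6.63 in spleen and 4.68, 4.69 and 5.35 in tumor. In both groups the array numbered 3 was the highest, which widened the spread, and the groups still did not overlap. The difference of -1.12 ± 0.29 had a limma adjusted p = 0.0441, and leaving out any array other than tumor 3 ended the call (adjusted p up to 0.179, differences from -1.34 to -0.82). So did the absence of a filter and a pseudocount of 16. With the replicate number as a block the adjusted p was 1.73e-04, and within numbers the differences were -1.04, -1.03 and -1.28.

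Ptger4 encodes EP4, the other receptor that couples prostaglandin E2 to cAMP. Its levels of 9.09, 9.07 and 9.17 in spleen and 9.04, 8.92 and 8.94 in tumor were the tightest of the members. The groups sat side by side without overlap, but the difference was only -0.15 ± 0.13 (limma adjusted p = 0.68). Within arrays the level of Ptgir minus that of Ptger4 shifted by -1.08, from 0.79 ± 0.13 to -0.29 ± 0.22. The level of Ptger2 minus that of Ptger4 shifted by -0.97, from -3.09 ± 0.47 to -4.06 ± 0.41. In both pairs, also chosen after the values were seen, the groups did not overlap. The exact permutation p of 0.1 for each is the smallest that 3 against 3 arrays allow, so whether these receptor genes changed unequally could not be settled by it.

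The promoters of the EP2 and EP4 genes are shown because both receptors bind prostaglandin E2.
Ptger2 promoter, chr14:44987861-44988160, plus strand: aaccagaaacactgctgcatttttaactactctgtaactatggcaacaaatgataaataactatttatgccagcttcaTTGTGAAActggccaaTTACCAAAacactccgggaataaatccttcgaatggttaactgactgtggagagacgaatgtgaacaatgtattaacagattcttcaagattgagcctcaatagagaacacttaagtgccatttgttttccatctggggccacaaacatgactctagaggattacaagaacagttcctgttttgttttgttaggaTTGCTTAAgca
Ptger4 promoter, chr15:5244138-5244437, minus strand: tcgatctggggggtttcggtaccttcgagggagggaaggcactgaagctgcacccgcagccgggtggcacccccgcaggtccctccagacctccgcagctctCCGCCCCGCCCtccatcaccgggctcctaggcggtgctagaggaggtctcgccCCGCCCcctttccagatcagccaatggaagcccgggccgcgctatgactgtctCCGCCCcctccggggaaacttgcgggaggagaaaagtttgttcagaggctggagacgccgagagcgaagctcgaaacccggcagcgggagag
That of Ptger2 is 37.7% G and C with 3 CpG pairs and 0 GC boxes, and carries 3 C/EBP matches. That of Ptger4 is 67.0% G and C with 25 CpG pairs and 4 GC boxes, and none of the other motifs. The median over all promoters was 52.7% G and C with 7 CpG pairs.

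Of the 3 members of leukotriene synthesis 2 were lower in tumor, and Alox5ap was not called, while 4.85% of all tested genes were lower. Alox5, the 5-lipoxygenase that starts leukotriene synthesis (probe set 17470031, Entrez gene 11689), had levels of 8.31, 8.42 and 8.69 in spleen and 7.08, 7.32 and 7.67 in tumor. The tumor arrays lay below every spleen array by more than the spread within a group, and the difference was -1.12 ± 0.19 (limma adjusted p = 0.00731). A second, dimmer probe set for Alox5 read 6.50, 6.70 and 7.94 in spleen and 6.39, 6.31 and 6.61 in tumor, a difference of -0.61 with spleen 3 standing apart. With the mean of both probe sets the gene was at -0.87 and not called. Set against each other within an array, the level of Ptgs2 minus that of Alox5 went from -1.51 ± 0.06 in spleen to 3.17 ± 0.28 in tumor, a shift of 4.68 with no overlap (exact permutation p = 0.1, the smallest possible). This pair of a rising and a falling gene was chosen after the values were seen, so its separation adds no test to theirs.

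The promoter of Alox5 is shown for contrast with that of Ptgs2, as the 2 enzymes use the same substrate, and Ptgs2 was higher and Alox5 lower.
Alox5 promoter, chr6:116461129-116461428, minus strand: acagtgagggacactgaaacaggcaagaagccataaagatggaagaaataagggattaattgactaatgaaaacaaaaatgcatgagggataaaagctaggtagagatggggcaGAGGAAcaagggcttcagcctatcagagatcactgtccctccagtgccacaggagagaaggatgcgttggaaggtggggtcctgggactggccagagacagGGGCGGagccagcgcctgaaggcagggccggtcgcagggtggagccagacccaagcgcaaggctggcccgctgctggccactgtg
It holds 1 PU.1 match at -136 to -131 and 1 GC box at -35 to -30, and no C/EBP, cAMP, E-box or TATA match to the letters given above. The promoter windows of 9 of the 10 genes named in the rule were found in RefSeq, Alox5ap being the one without an entry. A PU.1 match stood in 7 of these 9, among them the unmeasured Ptgs1, against 28.3% of all promoters. The motifs were set after the members' values were seen, so this count was not tested.

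Alox5ap, the membrane protein FLAP that hands arachidonic acid to 5-lipoxygenase, had levels of 11.20, 11.26 and 11.69 in spleen and 10.61, 10.76 and 11.12 in tumor. The groups were separate by a narrow gap, since number 3 was the highest array in each. The difference of -0.55 ± 0.20 missed the threshold (limma adjusted p = 0.139), while it was called with the replicate number as a block (adjusted p = 0.00326), among numbers 1 and 2 alone (0.0342), with array weights and under all 3 other scalings between arrays. Its second probe set read 5.22 to 5.43 on the arrays numbered 1 and 2 and 8.43 and 7.67 on spleen 3 and tumor 3, so it followed the replicate number rather than the tissue.

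Lta4h, the hydrolase that makes leukotriene B4 (probe set 17236531, Entrez gene 16993), had levels of 9.46, 9.44 and 9.66 in spleen and 8.49, 8.72 and 8.65 in tumor. No tumor array reached the lowest spleen array. The difference was -0.90 ± 0.15 (limma adjusted p = 0.00596) and was called under all 19 alternatives.

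**Figure D2:**
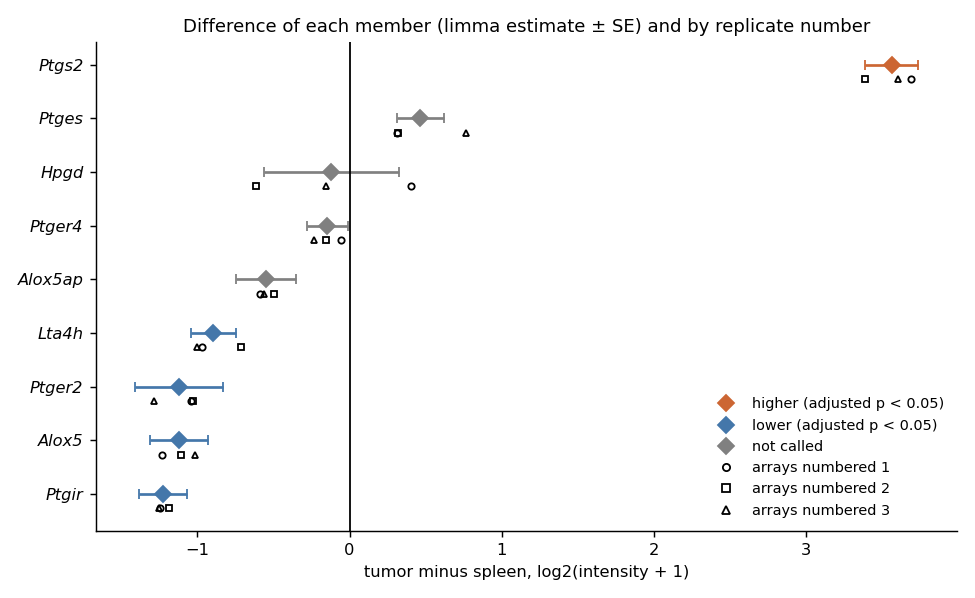
Difference between tumor and spleen for each member, in log2(intensity + 1), as the limma estimate ± SE (diamonds, coloured by call) with the differences within arrays of the same replicate number below each (open symbols). Ptgs2 stands alone at 3.56, Ptgir, Alox5, Ptger2 and Lta4h lie between -1.23 and -0.90, and the 3 differences of Hpgd fall on both sides of 0.

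The other genes of the pathway were read from 9 lists by role, of which 83 genes were tested. These lists were written with earlier results of these data known. Across all tested genes 10.6% were called, 5.73% higher and 4.85% lower. Of the 83 listed genes 14 were higher and 11 lower in tumor, with a median difference of -0.01 against -0.05 over all tested genes. Of the rises 5 were of cytokine genes and 4 of genes induced through cAMP, and the falls were mostly of enzymes. With the replicate number as a block the counts were 21 higher and 20 lower of the 83 listed genes. That fit called 2153 higher and 3193 lower of all 18458 tested genes, the background also for the block counts by list below. Leaving out spleen 1, spleen 2, tumor 1 or tumor 2 reduced the 11 lower to 6, 4, 3 and 6.

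Among 16 genes that release or re-esterify arachidonic acid, 1 was higher and 3 lower, with a median difference of -0.12 (3 higher and 4 lower with the replicate block). The rise was that of Pla2g4a, the cytosolic phospholipase that frees arachidonic acid for both branches, from 8.02, 8.02 and 8.60 in spleen to 9.41, 9.01 and 9.70 in tumor. Its difference of 1.16 ± 0.23 had a limma adjusted p = 0.0158, lost without spleen 1, spleen 2 or tumor 1 (adjusted p up to 0.0743). Lower were Daglb, a diacylglycerol lipase on another route to arachidonic acid (-1.54 ± 0.18, adjusted p = 9.44e-04 by limma), the lysosomal phospholipase gene Pla2g15 (-1.36 ± 0.16) and the calcium-independent phospholipase gene Pla2g6 (-0.74 ± 0.19, adjusted p = 0.0422). Pla2g6 kept its call only without tumor 3 when single arrays were left out. The rise of Pla2g4a and the fall of Daglb were thus of unlike sign, and in both the groups did not overlap.

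The other prostanoid synthases had 0 higher and 2 lower genes of 7 (median -0.08). Tbxas1, thromboxane synthase, was at -0.74 ± 0.15 (limma adjusted p = 0.0174), and the carbonyl reductase gene Cbr1, whose product reduces prostaglandin E2, at -0.80 ± 0.17 (adjusted p = 0.0218). Neither call held in every fit that left out 1 array. Tbxas1 was not called without spleen 1, spleen 2 or tumor 1 (limma adjusted p up to 0.0916). Cbr1 was not called without spleen 1, spleen 2, tumor 1 or tumor 2 (up to 0.102). The differences stayed at -0.79 to -0.65 for Tbxas1 and at -0.93 to -0.70 for Cbr1. Over all genes such fits gave 1001 to 1932 calls in place of 1952. With the mean of its 2 probe sets Cbr1 was not called either. Of 4 genes of prostaglandin transport and inactivation none was called by limma (median -0.29), and 2 were lower with the replicate block, Ptgr2 (-0.80 ± 0.25, adjusted p = 0.091, with the block 0.00178) and Ptgr1 (-0.37 ± 0.28, with the block adjusted p = 0.031), both prostaglandin reductases. Among 4 other prostanoid receptors 1 was lower (median -0.18). This was Ptger3, the EP3 receptor that lowers cAMP, at 6.01, 6.26 and 7.09 in spleen against 4.90, 4.45 and 5.20 in tumor, a difference of -1.60 ± 0.30 (adjusted p = 0.0113, and 0.0517 without tumor 1). Of the prostanoid receptor genes measured, members included, Ptgir, Ptger2 and Ptger3 were thus lower and none was higher. Ptger4, Ptgdr, Ptgfr and Tbxa2r were not called, and of all tested genes 4.85% were lower. Among the lower receptor genes only Ptgir kept its call whichever single array was left out.

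Cysteinyl leukotriene enzymes and other lipoxygenases had 0 higher and 3 lower genes of 15 (median -0.17; 0 higher and 6 lower with the replicate block). Ltc4s, which couples leukotriene A4 to glutathione, was at -0.72 ± 0.17 (limma adjusted p = 0.0333), and Dpep2, a dipeptidase that processes the product further, at -0.78 ± 0.15 (adjusted p = 0.0118). Cotl1, a protein that binds 5-lipoxygenase, fell from 10.54, 10.59 and 10.57 to 9.71, 9.80 and 9.64, by 0.85 ± 0.13 (adjusted p = 0.00509). Cotl1 was called under every alternative tried. Ltc4s lost its call without spleen 2, spleen 3, tumor 1 or tumor 2 (adjusted p up to 0.15) and among numbers 1 and 2 alone, and Dpep2 without spleen 2, tumor 1 or tumor 2 (up to 0.0658). With Alox5 and Lta4h, 5 genes that make or serve leukotriene synthesis were lower in tumor, and only Lta4h and Cotl1 kept the call under every alternative. Alox5ap, Mgst2, Mgst3, Ggt5, Dpep1 and Abcc1 were not called, and of all tested genes 4.85% were lower.

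The receptors ran the other way in part, with 2 higher and 1 lower of 6 (median 0.44; 3 higher and 1 lower with the replicate block). Cysltr2, a receptor of cysteinyl leukotrienes, had levels of 4.47, 4.50 and 4.21 in spleen and 6.56, 7.00 and 6.71 in tumor. Its rise of 2.36 ± 0.17 (5.14-fold, limma adjusted p = 5.96e-05) separated the groups fully. Fpr2, the receptor of formyl peptides and of lipoxin A4, rose from 7.23, 7.23 and 7.38 to 9.51, 9.47 and 9.41, by 2.18 ± 0.14 (adjusted p = 2.87e-05). Both kept their calls under all alternatives. Ltb4r1, the high-affinity leukotriene B4 receptor, fell by 0.68 ± 0.13, from 5.81, 5.93 and 5.83 to 5.15, 5.21 and 5.16 (adjusted p = 0.0137, lost without spleen 1, spleen 2 or tumor 1, up to 0.0895).

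**Figure D3:**
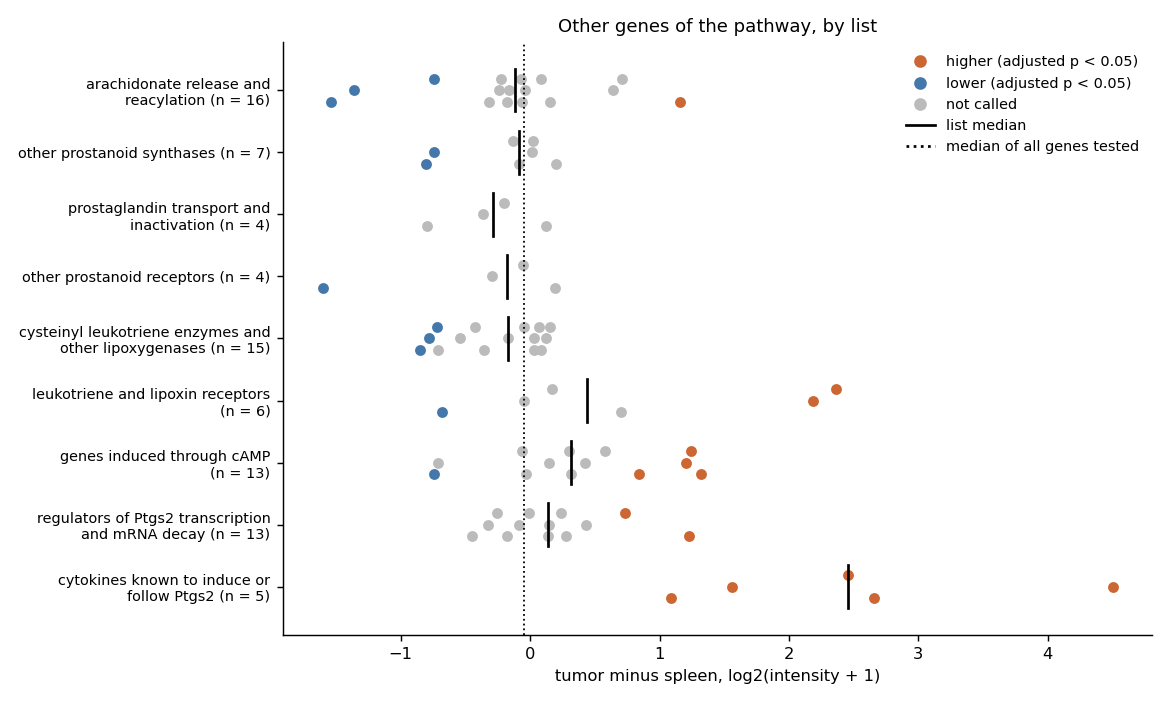
Difference between tumor and spleen, in log2(intensity + 1), of the 83 tested genes in 9 lists by role; each point is a gene, coloured where the limma adjusted p is under 0.05, black bars are list medians and the dotted line is the median of all tested genes, -0.05. The 5 tested cytokine genes all lie on the higher side, while the lists of synthases and lipoxygenases hold only lower calls. The lists were written with earlier results of these data known.

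Genes known to be induced through cAMP, the messenger of EP2, EP4 and the prostacyclin receptor, had 4 higher and 1 lower of 13 (median 0.31). Higher were the nuclear receptor genes Nr4a2 (1.32 ± 0.19, limma adjusted p = 0.00333) and Nr4a3 (0.84 ± 0.13), the AP-1 subunit gene Fos (1.24 ± 0.23) and the phosphatase gene Dusp1 (1.21 ± 0.14). The clock gene Per1 fell by 0.74 ± 0.14 (adjusted p = 0.0131, lost without spleen 1, spleen 2, tumor 1 or tumor 2, up to 0.0731). With the replicate block the counts were 7 higher and 2 lower. Other signals also induce these genes, and the part of cAMP in their changes was not tested. Among 13 regulators of Ptgs2 transcription and mRNA decay 2 were higher and 0 lower (median 0.13; 3 higher and 2 lower with the replicate block), the hypoxia-inducible factor gene Hif1a (1.23 ± 0.18, adjusted p = 0.00388) and Egr1 (0.73 ± 0.19, adjusted p = 0.0424), whose call was lost without any one array other than spleen 3 (adjusted p up to 0.156). Hif1a was not called with the mean of its 2 probe sets. Of the cytokine genes known to induce or accompany Ptgs2, 5 of 5 tested were higher (median 2.45): Il6 (4.50 ± 0.25), Tnf (2.65 ± 0.18), Il1a (2.45 ± 0.16), the receptor antagonist gene Il1rn (1.56 ± 0.15) and Il1b (1.09 ± 0.17), with limma adjusted p from 1.47e-05 to 0.00476. The cytokine list was written with earlier results of these data known, so this count describes the list and tests nothing. Of all tested genes 5.73% were higher. Il10 did not pass the filter on low values, with levels of 3.21 to 3.38 in spleen and 3.38 to 3.40 in tumor.

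Genes whose pattern over the 6 arrays was most like that of Ptgs2 were found by the root mean square difference between profiles of log2(intensity + 1), each centred on its own mean. The 5 nearest were Tlr3 (0.064), a sensor of double-stranded RNA, Nt5c3 (0.091), Rnf213 (0.110), Gbp7 (0.110) and Oas2 (0.115), with differences between tumor and spleen of 3.63, 3.45, 3.52, 3.56 and 3.42. Those nearest to Alox5 were Ahnak2 (0.057), Wdr81 (0.063), Fry (0.064), Ubald1 (0.070) and Tifab (0.072), with differences of -1.14, -1.05, -1.11, -1.07 and -1.08. With 2 groups and 6 arrays, likeness mostly reflects an equal difference between the groups.

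**Figure D4:**
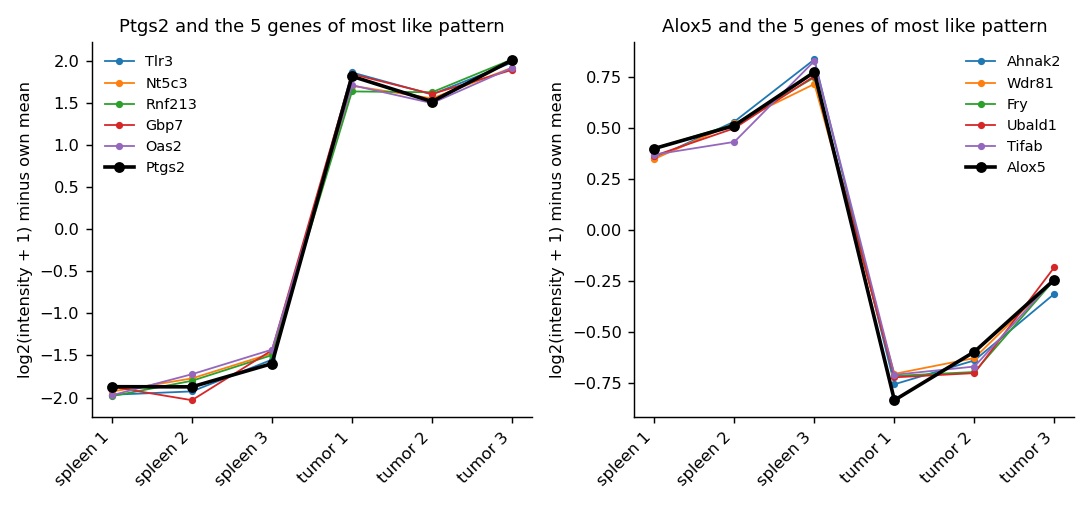
Log2(intensity + 1) minus each gene's own mean over the 6 arrays, for Ptgs2 (left, black) and Alox5 (right, black) with the 5 tested genes of smallest root mean square difference from each. In both panels the lines almost coincide, the farthest being Oas2 at 0.115 on the left and Tifab at 0.072 on the right.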

How the data were processed

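The authors deposited 1 table of linear intensity per probe set for 6 Mouse Gene 2.0 ST arrays, made with RMA per the submitters' processing notes, with version and settings not given in the sources used here. Array medians differ, so whether all arrays were brought to 1 distribution is unknown. Genes were named from the platform annotation, where 23521 of 41345 probe sets carry 1 symbol. Values were used as log2(intensity + 1), a scale that understates changes of dim genes. Genes above the 25th percentile of their array on at least 3 arrays were tested with limma 3.58.1 in R 4.3.3 (lmFit, eBayes, two-sided, group as the only term), and the code was tested on simulated data. Benjamini-Hochberg adjustment ran over all 18458 genes. Named were all members, up to 4 called genes per direction of each pathway list or the 2 brightest where none was called, of each marker list the 2 brightest and up to 2 called genes, and the 5 genes of most like pattern for Ptgs2 and Alox5. Itgax, Ly6c2, Ccr2, Itgam, Fcer1a, Ly6g, Zbtb46, Il1b and Il10 were named after their values were seen. So were the uncalled dendritic cell genes, and the uncalled receptor and leukotriene genes given without values. The brightest genes of the marker lists were left out for length except where named. The members and lists were chosen with earlier results of these data known.

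Same-numbered spleen and tumor arrays deviated together from their group means, with correlations over genes of 0.36, 0.44 and 0.71 for numbers 1, 2 and 3. Equal numbers were taken as pairs in a fit with the number as a block. The crossed pairs of numbers 1 and 2 reached 0.46 and 0.35, so these correlations set number 3 apart but do not tell the pairing of numbers 1 and 2. No label explains the numbers. Promoters are those of RefSeq on GRCm38.p6, and the array's own genome build is not stated in the labels. The number of arrays limits the precision.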

Additional observations from a re-analysis of the deposited data

How the results depend on the processing

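Ptgs2, Ptgir and Lta4h kept direction and call under all 19 alternatives. Members called higher were 2 in place of 1, Ptges being added, with cyclic loess, with array weights and with the replicate block. Members called lower were 2 in place of 4 in an unmoderated fit, 3 to 4 with single arrays left out, and 5, Alox5ap being added, with the block. Hpgd turned from -0.12 to 0.23 without spleen replicate 2 and to 0.30 without tumor replicate 3 (leave-one-out range -0.52 to 0.30), and the 50th percentile filter left it untested. Over all genes, 1952 calls became 3506 with quantile normalization, 3289 with median centring, 3184 with cyclic loess, 901 unmoderated, 7102 with array weights, 5346 with the replicate block, 961 at an adjusted p under 0.01 and 2940 among numbers 1 and 2 alone. Single arrays left out gave 1001 to 1932. Pathway genes called higher numbered 23 with array weights in place of 14, and 12 to 15 with single arrays left out. Those called lower, 11 in the fit reported, were 6 unmoderated, 25 with array weights, 20 with the replicate block, 3 at an adjusted p under 0.01 and 3 to 12 with single arrays left out. The cause of these shifts was not tested. Among numbers 1 and 2 alone a gene had to pass the filter on 2 arrays. The replicate block ended no call of a member or of a pathway gene named here.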
